A study of Mus musculus with 6 samples.

Results

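The AP-1 transcription factors examined here were 10 genes chosen by name: Fos, Fosb, Fosl1 and Fosl2 of the Fos family, Jun, Junb and Jund of the Jun family, and the related genes Atf3, Maff and Batf. All 10 were among the 24982 genes listed for each library. Of these 10 genes, 9 had coverage above 0 and passed the filter on low values, as did 12409 genes in all. Batf was listed at 0 in all 6 libraries and was not tested.

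AP-1 is a dimer of basic leucine zipper proteins. Jun proteins pair with each other or with Fos proteins, whereas Fos proteins bind DNA stably only with a partner, and the composition of the dimer affects which sites are bound and how strongly transcription is activated. Many of these genes are immediate early genes induced through MAP kinases by growth factors and stress, and in the epidermis AP-1 sites are known from the control regions of genes of both proliferation and terminal differentiation.

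RNA was sequenced from 2 C57BL/6 mouse keratinocyte lines of neonatal skin, with 3 libraries of each and no treatment. The KSFM-Ca2+ line was established and kept in the low calcium medium of that name. The DKSFM line came from KSFM-Ca2+ cells that had been adapted to DKSFM, so that medium, adaptation and time in culture cannot be told apart. The question was how the AP-1 genes differ between the parental and the adapted line.

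Each value was the mean read coverage per base of a gene, so that levels of different genes could be set side by side on a scale per length. Added up over the genes, coverage came to 1601676, 1238411 and 1057750 in KSFM-Ca2+ replicates 1 to 3 and 1174348, 1239438 and 1170675 in DKSFM replicates 1 to 3. Values below are coverage per base after scaling between libraries, called normalized coverage. The sample labels do not say whether the libraries of a line came from separate cultures, and the study describes its experiments in general as replicated on biological samples without tying this to single libraries. The p-values measure only the spread between these samples, which may be technical.

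Both lines carried the keratinocyte label in their transcripts. All 8 keratinocyte markers were above 0 in every library, and their summed normalized coverage was 19476, 19869 and 19541 in KSFM-Ca2+ and 45406, 41442 and 45783 in DKSFM. Krt14 and Krt5, the basal keratins, were the most abundant and the only 2 of them called (by the thresholds given below for the AP-1 genes), at log2 fold changes of 1.31 and 1.25. Among the other 6, Itgb4 at -0.74 and Cdh1 at -0.13 were lower in DKSFM past the limma adjusted p threshold of 0.01, and Col17a1 at 0.37, Itga6 at 0.14 and Trp63 at 0.13 were higher past it. Of 8 fibroblast markers, Col1a1, Col1a2, Col3a1, Pdgfrb, Lum and Dcn were listed at 0 in all 6 libraries, and the list summed to 8.76, 8.21 and 8.38 in KSFM-Ca2+ and 2.44, 2.10 and 2.23 in DKSFM. The most abundant was Twist2 in KSFM-Ca2+, at 7.62, 7.32 and 7.08 against 0.106, 0 and 0 in DKSFM, and Pdgfra in DKSFM, at 2.34, 2.10 and 2.23 against 1.14, 0.890 and 1.30 in KSFM-Ca2+, so the detected markers differed in opposite directions. All 6 melanocyte markers stayed under 1, with Pmel the most abundant, Tyr and Dct at 0, and sums from 0.212 in DKSFM replicate 3 to 0.890 in KSFM-Ca2+ replicate 2. The 7 immune markers summed to 1.37, 1.68 and 2.24 in KSFM-Ca2+ and from 0.50 to 0.849 in DKSFM, with Cd3e and Tyrobp at 0. Cd74 led in KSFM-Ca2+, at 1.22, 1.48 and 1.89, and was listed at 0 in DKSFM (called, limma adjusted p = 2.41e-06), where Fcer1g led at 0.849, 0.30 and 0.636 and was not tested. The 4 endothelial markers summed to 2.82, 3.16 and 3.30 in KSFM-Ca2+ and 8.28, 8.29 and 7.42 in DKSFM, almost entirely through Pecam1, with Cdh5 at 0. Rn45s, the ribosomal RNA precursor, took 0.0198%, 0.0193% and 0.0136% of coverage in KSFM-Ca2+ and 0.00194%, 0.00206% and 0.00466% in DKSFM. The part of these low levels in the differences below was not tested.

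A gene was called when its limma adjusted p was under 0.01 and its fold at least 2. Of the 9 AP-1 genes tested, 2 were called higher in DKSFM, Jun and Fosl2, against 13.2% of all genes tested. In the other direction 3 were called higher in KSFM-Ca2+, Fosl1, Atf3 and Maff, against 10.5% of all genes tested. At any fold, 4 of the 9 passed the adjusted p threshold with higher levels in DKSFM and 4 with higher levels in KSFM-Ca2+, where 35.5% and 37.1% of all genes tested did so. The libraries of the lines did not overlap for any of the 9, and for 83.3% of all genes tested, so lack of overlap by itself was common in this comparison. In bulk RNA, fewer cells expressing a gene and less RNA per cell cannot be told apart.

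Within the Fos family, the related genes Fosl1 and Fosl2 moved in opposite directions. Fosl1 (chr19:5447547-5455946 of GRCm38, plus strand) encodes Fra-1, a Fos protein without the transactivation domain of Fos itself. Its normalized coverage was 15.4, 16.0 and 19.7 in the KSFM-Ca2+ libraries and 4.03, 2.60 and 2.97 in the DKSFM libraries. The highest DKSFM library was well below the lowest KSFM-Ca2+ library. The means were 17.0 ± 2.33 and 3.20 ± 0.746 (SD, n = 3 in each), a log2 fold change of -2.39 (95% confidence interval -2.77 to -2.01, limma adjusted p = 2.76e-06).

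Fosl2 (chr5:32135801-32157842, plus strand) encodes Fra-2. Its normalized coverage was 28.7, 27.6 and 27.1 in KSFM-Ca2+ and 101.0, 98.9 and 100.9 in DKSFM. The 3 libraries of a line lay close together and the lines were far apart. DKSFM exceeded KSFM-Ca2+ by a log2 fold change of 1.85 (95% confidence interval 1.76 to 1.93, limma adjusted p = 3.30e-09), with means of 27.8 ± 0.821 and 100.3 ± 1.16 (SD, n = 3 in each).

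Fos (chr12:85473890-85477273, plus strand), the founding member of the family and a classical immediate early gene, had normalized coverage of 16.2, 15.7 and 16.9 in KSFM-Ca2+ and 31.0, 30.5 and 32.2 in DKSFM. All DKSFM libraries were higher, but the fold fell just short of 2. With a log2 fold change of 0.94 (95% confidence interval 0.83 to 1.05, limma adjusted p = 4.92e-07), Fos passed the p threshold and was not called, and its interval included a 2-fold difference. Fosb (chr7:19302696-19310051, minus strand), another immediate early gene, was near the floor of the data at 0.610, 0.791 and 0.590 in KSFM-Ca2+ and 1.06, 1.30 and 0.848 in DKSFM. These values rest on deposited coverage of 0.5 to 1.3 given in steps of 0.1. The log2 fold change of 0.61 on the scale of log2 coverage plus 0.1 did not pass the threshold (limma adjusted p = 0.0290), and it was 0.20 with quantile normalization (limma adjusted p = 0.392, in a range of 0.0164 to 0.392 over 17 alternatives).

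**Figure D1:**
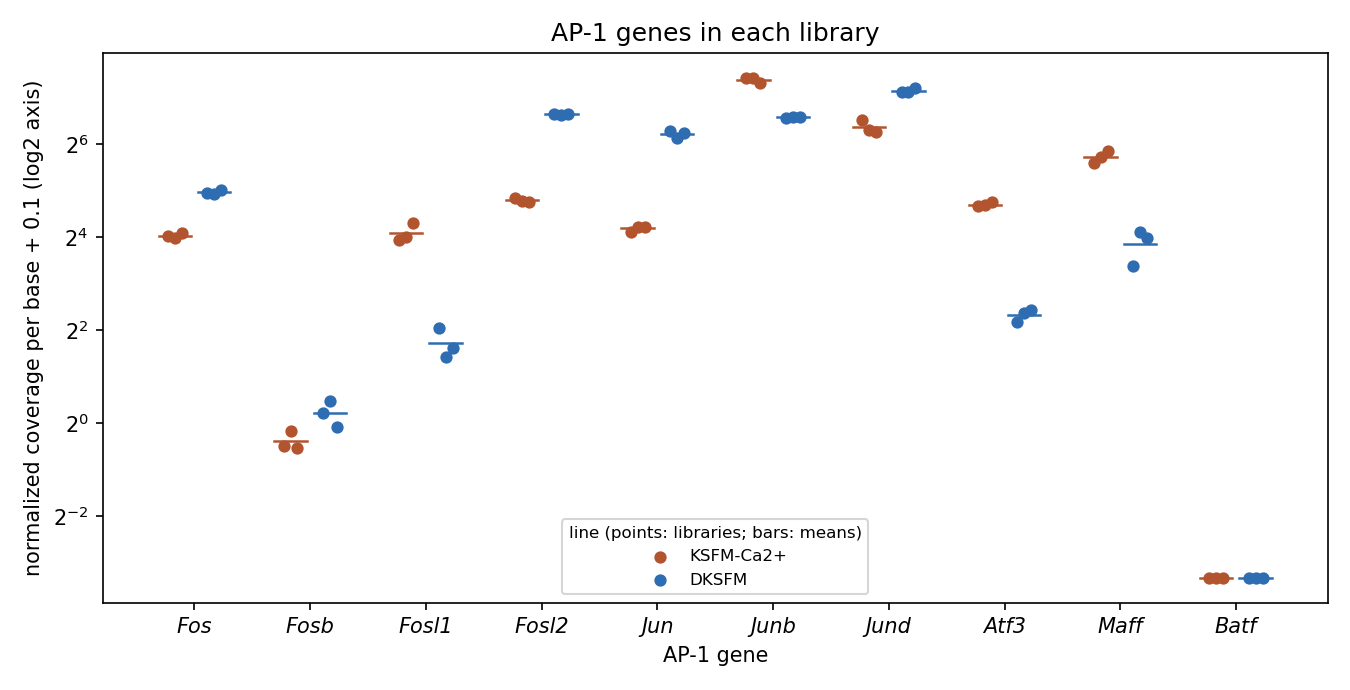
Normalized coverage per base plus 0.1 on a log2 axis for each AP-1 gene, with a point for each of the 3 libraries of a line and a bar at the mean. Jun and Fosl2 were higher in DKSFM, Fosl1, Atf3 and Maff higher in KSFM-Ca2+, and Batf was at 0 in all 6 libraries.

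Among the Jun family, Jun itself changed most. Jun (chr4:95049034-95052222, minus strand) encodes c-Jun, a strong activator and the main partner of Fos. Its normalized coverage was 17.2, 18.7 and 18.6 in KSFM-Ca2+ and 77.8, 70.6 and 76.3 in DKSFM. All 3 DKSFM libraries were above all 3 KSFM-Ca2+ libraries, with means of 18.2 ± 0.833 and 74.9 ± 3.78 (SD, n = 3 in each). Between the lines this made a log2 fold change of 2.04 (95% confidence interval 1.91 to 2.16, limma adjusted p = 1.37e-08).

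Junb (chr8:84974484-84978718, minus strand) encodes a Jun protein with weaker activating function that can restrain c-Jun. Its normalized coverage was 171.9, 172.4 and 160.2 in KSFM-Ca2+ and 94.9, 95.8 and 96.5 in DKSFM. Junb was therefore higher in every KSFM-Ca2+ library, opposite to Jun. The log2 fold change of -0.81 (95% confidence interval -0.89 to -0.73, limma adjusted p = 2.06e-07) passed the p threshold, and its interval stopped short of a 2-fold difference.

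Jund (chr8:70698949-70700616, plus strand), the Jun gene known for steady expression in many cell types, had normalized coverage of 92.5, 78.8 and 76.5 in KSFM-Ca2+ and 139.4, 139.8 and 148.3 in DKSFM. The lines did not overlap, although KSFM-Ca2+ replicate 1 stood above the other KSFM-Ca2+ libraries. The log2 fold change was 0.79 (95% confidence interval 0.63 to 0.95, limma adjusted p = 1.24e-05), past the p threshold and under 2-fold. In the annotation Jun, Junb and Jund each had a principal transcript of 1 exon, whereas those of the 4 Fos family genes had 4 exons.

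The other called members were both higher in KSFM-Ca2+. Atf3 (chr1:191170296-191218039, minus strand) encodes a stress-inducible zipper protein that can pair with Jun proteins and often represses. Its normalized coverage was 25.3, 25.7 and 26.9 in KSFM-Ca2+ and 4.46, 5.10 and 5.30 in DKSFM. Atf3 was lower in each DKSFM library than in any KSFM-Ca2+ library, with a log2 fold change of -2.37 (95% confidence interval -2.55 to -2.19, limma adjusted p = 4.03e-08).

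Maff (chr15:79346621-79359076, plus strand) encodes a small Maf protein, which has a zipper but no transactivation domain. Its normalized coverage was 48.4, 53.3 and 58.2 in KSFM-Ca2+ and 10.4, 17.2 and 15.7 in DKSFM. DKSFM replicate 1 was the lowest library, and the coefficient of variation in DKSFM was 24.7%, the largest of the tested members in either line. Its log2 fold change was -1.91 (95% confidence interval -2.30 to -1.51, limma adjusted p = 1.43e-05). With only the 4 libraries whose deposited file is marked combined, which leaves KSFM-Ca2+ with replicate 3 alone, the log2 fold change was -2.04 and the call was narrowly lost (limma adjusted p = 0.0101, in a range of 2.07e-06 to 0.0101 over 17 alternatives). Batf (chr12:85686669-85709087, plus strand), best known from lymphocytes, had no coverage, while Fos, 209.4 kb before it on the same strand, was expressed in both lines.

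**Figure D2:**
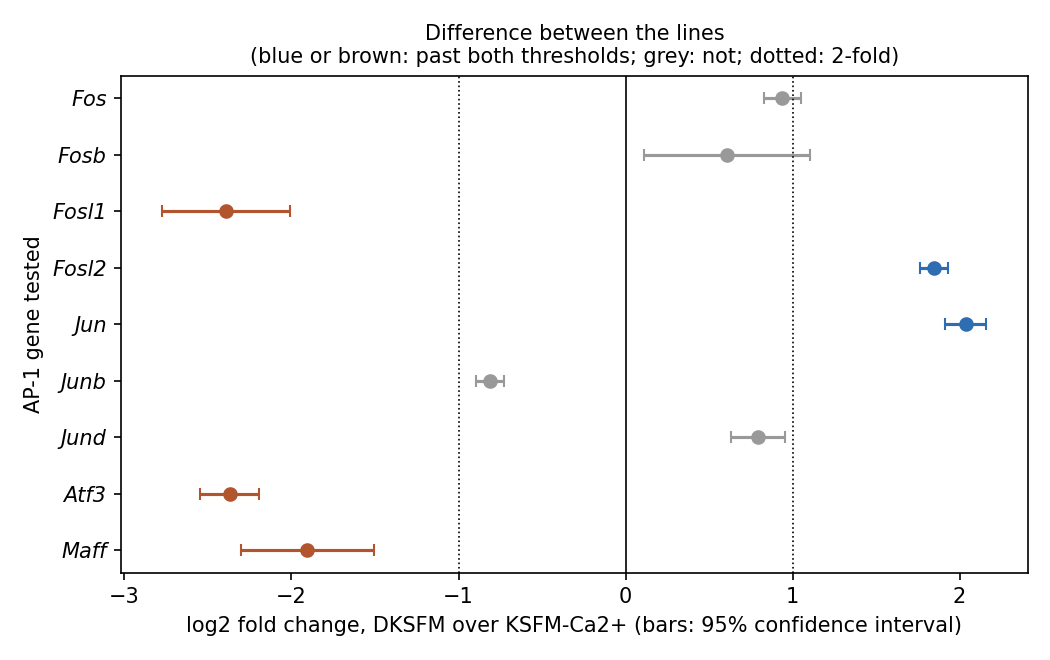
Log2 fold change of DKSFM over KSFM-Ca2+ for the 9 AP-1 genes tested, with points for the limma estimate from 3 libraries of each line and bars for the 95% confidence interval. Jun at 2.04 and Fosl2 at 1.85 lie beyond the 2-fold line on the side of DKSFM, and Fosl1 at -2.39, Atf3 at -2.37 and Maff at -1.91 on that of KSFM-Ca2+.

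The order of the levels per base differed between the lines. In KSFM-Ca2+ the order of mean normalized coverage was Junb (168.2), Jund (82.6), Maff (53.3), Fosl2 (27.8), Atf3 (26.0), Jun (18.2), Fosl1 (17.0), Fos (16.3) and Fosb (0.664). Jun overlapped with Fosl1 and Fosl1 with Fos in their libraries, so these neighbours did not differ beyond their spread. In DKSFM it was Jund (142.5), Fosl2 (100.3), Junb (95.7), Jun (74.9), Fos (31.2), Maff (14.4), Atf3 (4.95), Fosl1 (3.20) and Fosb (1.07), with no overlap between neighbours. Relative to the other genes tested, Jun was above 43.3% of them in KSFM-Ca2+ and 75.3% in DKSFM, Fosl2 above 52.6% and 80.9%, and Fosl1 above 41.9% and 16.5%.

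As shares of the summed normalized coverage of each family, the lines differed in the balance of Fosl1 and Fosl2. Fosl2 made up 45.1 ± 2.58% of the Fos family sum in KSFM-Ca2+ and 73.9 ± 0.311% in DKSFM, and Fosl1 27.5 ± 2.79% and 2.35 ± 0.523% (SD, n = 3 in each). The share of Fos was closer in the lines, at 26.3 ± 0.200% and 23.0 ± 0.472%. The ratio of Fosl2 to Fosl1 coverage was 1.66 ± 0.251 in KSFM-Ca2+ and 32.4 ± 6.68 in DKSFM. In the Jun family, Junb had the largest share in KSFM-Ca2+, 62.6 ± 1.43%, and 30.6 ± 0.640% in DKSFM, while Jun was at 6.78 ± 0.606% and 23.9 ± 0.942% and Jund at 30.7 ± 1.92% and 45.5 ± 0.774%. The ratio of Junb to Jun coverage was 9.27 ± 0.695 in KSFM-Ca2+ and 1.28 ± 0.0698 in DKSFM. The shares and ratios are descriptions and were not tested.

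**Figure D3:**
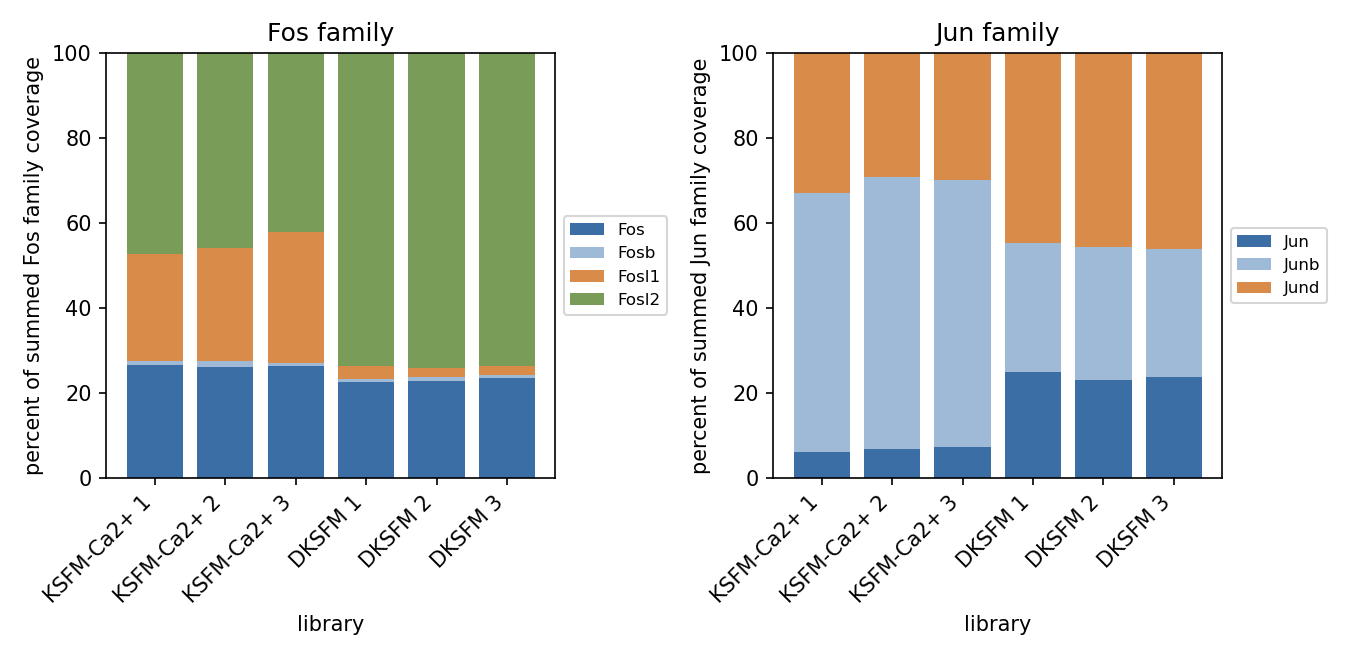
Percent of the summed normalized coverage of the Fos family and of the Jun family taken by each gene, with a stacked bar for each library. Fosl2 takes 73.9% on average in DKSFM against 45.1% in KSFM-Ca2+, and Junb 30.6% against 62.6%.

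Summed over each family, coverage was higher in every DKSFM library than in any KSFM-Ca2+ library. The 4 Fos family genes summed to 61.8 ± 2.23 in KSFM-Ca2+ and 135.8 ± 2.14 in DKSFM, and the 3 Jun family genes to 269.0 ± 13.2 and 313.2 ± 7.47 in normalized coverage (SD, n = 3 in each). Jun family coverage was thus 4.36 ± 0.346 times that of the Fos family in KSFM-Ca2+ and 2.31 ± 0.0344 times in DKSFM. These are transcript levels, and protein and DNA binding were not analysed here.

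Promoter windows from RefSeq (GRCm38.p6, 250 bases before to 50 after a transcription start) were matched by symbol for 9 of the 10 genes, and not for Fosl1. There were 11 windows in all. Not all lie at the gene starts given above. The Jund window (chr8:70697489-70697788) ends before the start at 70698949. The Atf3 window (chr1:191183284-191183583) lies inside the gene, away from its start at 191218039. The AP-1 site TGACTCA, on either strand, was in none of the 11 windows and in 5.2% of all 32851 windows. The CRE-like site TGACGTCA, which reads the same on both strands, was in 1 window, of Maff, and in 1.79% of all windows. A further 8 motifs were searched after the windows had been seen, so their matches were picked with the letters in view. Among them, TGACATCA on either strand, which overlaps neither of these sites in the member windows, was in 2 windows, of Jun and Maff, and in 3.62% of all windows. The windows with a match are shown because they belong to called members that moved in opposite directions. Capitals mark the motif, which begins 45 bases before the start in Jun. In the Maff windows it begins 29 and 45 bases before the alternative start of each window.
Jun, chr4:95052173-95052472, minus strand: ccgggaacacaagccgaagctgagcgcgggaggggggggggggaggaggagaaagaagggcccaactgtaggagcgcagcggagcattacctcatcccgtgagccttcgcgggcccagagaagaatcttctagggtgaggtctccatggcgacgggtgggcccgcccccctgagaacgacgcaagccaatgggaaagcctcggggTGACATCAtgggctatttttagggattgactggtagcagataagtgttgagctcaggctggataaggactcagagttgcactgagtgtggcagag
Maff, chr15:79347270-79347569, plus strand: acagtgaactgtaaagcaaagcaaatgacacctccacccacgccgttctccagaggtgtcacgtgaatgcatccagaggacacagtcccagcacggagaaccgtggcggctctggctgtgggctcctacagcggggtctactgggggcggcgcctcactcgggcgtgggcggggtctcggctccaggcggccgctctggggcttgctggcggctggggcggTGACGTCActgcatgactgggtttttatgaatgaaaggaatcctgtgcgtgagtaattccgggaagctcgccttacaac
Maff, chr15:79348152-79348451, plus strand: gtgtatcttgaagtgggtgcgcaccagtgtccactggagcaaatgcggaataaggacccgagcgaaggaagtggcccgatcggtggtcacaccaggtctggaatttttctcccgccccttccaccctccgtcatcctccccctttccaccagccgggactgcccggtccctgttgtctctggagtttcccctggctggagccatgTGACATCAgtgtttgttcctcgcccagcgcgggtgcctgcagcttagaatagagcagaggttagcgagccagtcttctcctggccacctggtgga
A match describes letters in these windows only, and use of the alternative Maff starts was not analysed here. The other 7 motifs, also on both strands, were in the following numbers of the 11 windows: TGACG, which is part of TGACGTCA, in 7, TATAAA in 2, GGGCGG in 8, CCAAT in 3, CACGTG in 1, the CArG box in 0 and the NF-kB motif in 3. They were in 20.8%, 13.6%, 35.7%, 37.4%, 7.15%, 1.63% and 9.38% of all windows, in that order.

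Genes near the members on the chromosome were also compared. Among tested genes within 10 Mb on either side, the median log2 fold change was -0.04 around Jun (49 genes), 0.13 around Fosl2 (148 genes), -0.01 around Fosl1 (211 genes) and 0.04 around Maff (214 genes). Around Atf3 it was -0.51 (66 genes), around Junb -0.48 (122 genes), around Fosb 0.51 (204 genes) and around Fos 0.17 (106 genes). Around Jund it was -0.23 (136 genes) and around Batf 0.18 (106 genes). Its sign was that of the member for Fosl2, Atf3, Junb, Fosb and Fos, and the opposite for Jund. Around Fosl1, Jun and Maff it lay close to the median over all genes tested, so its sign was not read. Windows of Fos and Batf, and in part those of Junb and Jund, share genes. Over all genes tested the median was -0.0012.

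The genes with a pattern most like that of Junb, the member with the highest mean coverage over the 6 libraries together (in DKSFM alone Jund and Fosl2 were higher), were Pdia4, Map2k1 and Mybl2, with root mean square differences of 0.023, 0.026 and 0.026 between centred log2 values over the 6 libraries. For Fosl1, the called member with the largest estimated difference, they were Cotl1, Fah and Tubb6, at 0.154, 0.154 and 0.155. The lead of Fosl1 over Atf3 was small, at -2.39 against -2.37. The smallest differences over 17 alternatives were -2.11 for Fosl1 and -2.18 for Atf3, so this order could turn. Tubb6, a tubulin, had mean normalized coverage of 607.2 in KSFM-Ca2+ and 119.7 in DKSFM, and Cotl1, an actin-binding protein, 107.4 and 21.8.

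Other genes related to AP-1, among them its textbook targets and other immediate early genes, were read from the same limma fit. Over 107 genes in 7 lists, 98 were tested, and 14 were called higher in DKSFM and 21 higher in KSFM-Ca2+, against 13.2% and 10.5% of all genes tested. The textbook targets gave 5 and 12 of these calls. The median log2 fold change of the 98 was -0.22. Counts and medians are descriptions, and no test was made of a list.

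Among 9 further AP-1 family genes, 8 were tested, with a median of -0.11. Of the 8, 2 were called higher in DKSFM and 1 higher in KSFM-Ca2+, against 13.2% and 10.5% of all genes tested. Maf, a large Maf protein, had mean normalized coverage of 3.99 ± 1.12 in KSFM-Ca2+ and 19.3 ± 1.37 in DKSFM (SD, n = 3 in each; log2 fold change 2.29). Without KSFM-Ca2+ replicate 3 the count higher in DKSFM was 1. Batf3 was at 5.26, 6.92 and 8.50 in KSFM-Ca2+ and 0.425, 0.0999 and 0.106 in DKSFM, so that of the Batf genes only Batf3 had clear coverage, in KSFM-Ca2+. With 0.5 required in every library Batf3 was left untested, and the count higher in KSFM-Ca2+ was 0. Jdp2, a repressor that pairs with Jun and lies between Fos and Batf on chromosome 12, was the most abundant of the list, at 94.2 ± 3.67 and 77.3 ± 12.7, and did not pass (log2 fold change -0.30, limma adjusted p = 0.0280). It passed the p threshold, under 2-fold, without DKSFM replicate 2 (-0.41, limma adjusted p = 0.00195) and with the replicate block (limma adjusted p = 0.00672), in a range of -0.41 to -0.17 and of adjusted p from 0.00195 to 0.322 over 17 alternatives.

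The MAP kinase cascade, which carries growth factor and stress signals to AP-1, was represented by 19 genes. Of 18 tested, 2 were called higher in DKSFM and 1 higher in KSFM-Ca2+, against 13.2% and 10.5% of all genes tested. The median was -0.15. Map3k1, a kinase of the JNK branch, had mean normalized coverage of 3.54 ± 0.0274 in KSFM-Ca2+ and 9.08 ± 0.166 in DKSFM (SD, n = 3 in each), a log2 fold change of 1.34. Map2k6, a p38 activator, was called in the other direction at 9.87 ± 0.0691 and 1.39 ± 0.178, a log2 fold change of -2.75. Map2k2 was the most abundant, at 262.6 ± 4.49 and 215.6 ± 12.8, with a log2 fold change of -0.29.

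Inhibitors that are induced by MAP kinase signalling and damp it were split. Of 14 genes 11 were tested, with a median of -0.35. Of the 11, 2 were called higher in DKSFM and 5 higher in KSFM-Ca2+, against 13.2% and 10.5% of all genes tested. Dusp1, a phosphatase of p38 and JNK, was at 6.94, 6.23 and 7.08 in KSFM-Ca2+ and 33.5, 40.1 and 38.8 in DKSFM, a log2 fold change of 2.45, and Dusp16, a JNK phosphatase, had a log2 fold change of 1.92. Dusp6, the cytoplasmic ERK phosphatase, was at 31.8, 29.2 and 32.6 in KSFM-Ca2+ and 6.26, 6.50 and 8.37 in DKSFM, a log2 fold change of -2.14, and Dusp10 had -1.42. These phosphatases thus differed in direction, and whether direction goes with the kinase they act on was not tested. The other 3 calls, of Dusp5, Spry2 and Spred2, which are named after their values were seen, lay near 2-fold at -1.05, -1.04 and -1.09. The count of 5 was 3 without DKSFM replicate 2, where Spry2 at -0.93 and Dusp5 at -0.88 were no longer called. With only the libraries marked combined, Spred2 at -0.999, Spry2 at -0.95 and Dusp5 at -1.15 were no longer called, with folds about as large. Dusp7 was the most abundant, at 209.7 ± 4.42 and 176.0 ± 5.60.

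**Figure D4:**
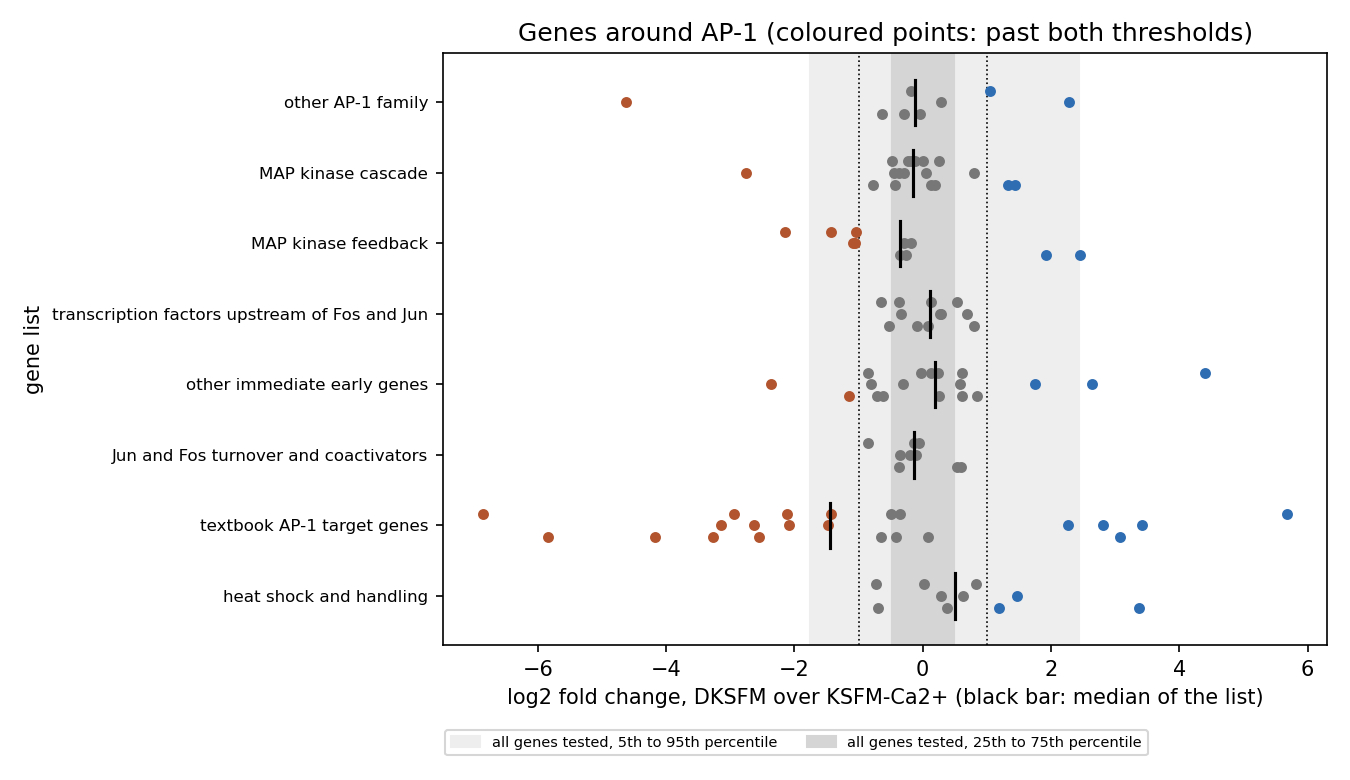
Log2 fold change of DKSFM over KSFM-Ca2+ from limma for each tested gene of 8 lists, with a black bar at the median of the list and grey bands for the percentiles of all genes tested. Textbook AP-1 targets spread farthest, from S100a8 at -6.86 to Sprr1a at 5.68, and upstream transcription factors stayed within 2-fold.

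Among the genes listed here as factors that drive Fos and Jun transcription, those tested were not called. Of 13 such genes 12 were tested and limma called 0 in either direction. Of all genes tested, 13.2% were called higher in DKSFM and 10.5% higher in KSFM-Ca2+. Past the adjusted p threshold at any fold, 4 were at higher and 4 at lower levels in DKSFM, against 35.5% and 37.1% of all genes tested. At an unadjusted p under 0.05 the counts were 6 and 4, against 5040 and 5120 of all 12409 genes tested. Mef2a was the most abundant, at 163.8 ± 4.89 in KSFM-Ca2+ and 263.6 ± 4.85 in DKSFM (log2 fold change 0.69). Mef2c was not tested, and it entered and was called higher in DKSFM without KSFM-Ca2+ replicate 1 or without DKSFM replicate 1, at 3.26 and 3.75, where the filter asked for 2 libraries, and with all 6 libraries and no filter, at 2.88 (limma adjusted p = 0.00909). Of 9 genes for the turnover and coactivation of Jun and Fos, limma again called 0, against 13.2% and 10.5% of all genes tested. At an unadjusted p under 0.05, 2 were higher and 4 lower in DKSFM, against 5040 and 5120 of all 12409 genes tested. Cops5, the subunit of the COP9 signalosome also named Jab1, was the most abundant at 479.2 ± 10.3 and 370.8 ± 17.1.

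The other immediate early genes were not uniformly higher in either line. Of 19 genes 18 were tested, with a median of 0.19. Of the 18, 3 were called higher in DKSFM and 2 higher in KSFM-Ca2+, against 13.2% and 10.5% of all genes tested. The 3 became 1 when 0.5 was required in every library, which leaves Egr2 and Egr3 untested, and the 2 became 4 with only the libraries marked combined, where Ctgf at -1.05 and Cyr61 at -1.07 were called, and 1 with a pseudocount of 1, where Nr4a1 at -0.94 was not. Egr3, a zinc finger factor, was at 0.686, 0.396 and 0.826 in KSFM-Ca2+ and 15.1, 15.5 and 14.4 in DKSFM, and Klf4, a factor of epidermal barrier formation, had a log2 fold change of 1.75. Ier3 was at 362.9, 369.6 and 413.1 in KSFM-Ca2+ and 70.6, 77.2 and 74.4 in DKSFM, a log2 fold change of -2.36, and Nr4a1 had -1.14. Myc was the most abundant of the list, at 410.0 ± 8.86 and 612.2 ± 24.3. Fos and Egr1, often induced together, differed in direction here: Egr1, named after its values were seen, was at 13.7 ± 1.08 and 8.89 ± 0.835, with a log2 fold change of -0.62.

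Textbook AP-1 targets were the list with most calls. Of 24 genes 22 were tested, and the median was -1.45 against -0.0012 over all genes tested. Of the 22, 5 were called higher in DKSFM and 12 higher in KSFM-Ca2+, against 13.2% and 10.5% of all genes tested. Sprr1a and Sprr1b, precursors of the cornified envelope, had the largest changes of those higher in DKSFM with a mean of at least 5 there; Lor, at 3.99 ± 0.223 in DKSFM, was below that level and had a log2 fold change of 3.42. Sprr1a was at 3.35, 3.07 and 3.30 in KSFM-Ca2+ and 158.5, 185.6 and 171.7 in DKSFM, a log2 fold change of 5.68, and Sprr1b had 3.08. Ivl, another gene of the cornified envelope that is named after its values were seen, went the other way. It was at 21.3 ± 0.186 in KSFM-Ca2+ and 13.5 ± 0.370 in DKSFM, under 2-fold (log2 fold change -0.66, limma adjusted p = 3.70e-06). S100a8 and S100a9, which form calprotectin, led those higher in KSFM-Ca2+. S100a8 was at 158.0, 185.6 and 198.6 in KSFM-Ca2+ and 2.02, 1.10 and 1.38 in DKSFM, a log2 fold change of -6.86, and S100a9 had -5.85. Cd44, the hyaluronan receptor, was the most abundant, at 1200.1 ± 52.9 and 432.1 ± 19.9. These genes have other regulators as well, and a link to the AP-1 genes was not tested.

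Heat shock genes, some of which respond to handling of cells, were read in the same way. Of 10 genes, all tested, 3 were called higher in DKSFM and 0 higher in KSFM-Ca2+, against 13.2% and 10.5% of all genes tested, with a median of 0.51. Hspe1 at -0.73 and Hsp90aa1 at -0.69, named after their values were seen, were higher in KSFM-Ca2+ under 2-fold, with limma adjusted p of 8.04e-07 and 1.45e-06. At any fold, 7 of the 10 passed the adjusted p threshold higher in DKSFM and these 2 higher in KSFM-Ca2+, against 35.5% and 37.1% of all genes tested. At an unadjusted p under 0.05 the counts were also 7 and 2, against 5040 and 5120 of all 12409 genes tested. Hspa1a was at 1.22, 1.38 and 0.826 in KSFM-Ca2+ and 11.8, 12.5 and 13.4 in DKSFM, and Hspa1b had a log2 fold change of 1.47. Hspa8, the constitutive and most abundant member, was at 1473.8 ± 74.2 and 1502.7 ± 71.0, with a log2 fold change of 0.028. The list summed to 3406, 3432 and 3595 in KSFM-Ca2+ and 3971, 3721 and 3934 in DKSFM, and its part in the differences of Jun, Fos and Atf3 was not tested.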

How the data were processed

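The authors sequenced RNA in 6 libraries of 2 keratinocyte lines and named bcl2fastq, STAR and DESeq2 and the build mm10 in their processing notes. The deposited files hold mean coverage per base of 24982 genes to 1 decimal, a signal not scaled to library size; how coverage was computed is not given in the sources used here. Coverage is not a count, so counting error and its intervals could not be given, and DESeq2 was not used. Libraries were scaled with a trimmed mean of M values without weights (30% of M and 5% of A trimmed at each end), and 0.1 was added before log2. Genes at 0.5 or more in at least 3 libraries were fitted with limma 3.58.1 (R 4.3.3) with an intensity trend, and p-values were adjusted by Benjamini-Hochberg over all 12409. A 2-group fit, adjusted p under 0.01 and 2-fold followed the study. The fit was tested on simulated data.

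The members and lists were chosen with earlier results of these data known. Genes named were all members, in each list the 2 called genes that changed most in each direction (mean 5 or more in the line where they were higher), the most abundant gene, any marker, and the 3 nearest patterns of 2 members among genes with a mean of at least 10; a few that the rule takes are not reported here. Positions came from the GENCODE annotation of GRCm38, the same build, and older symbols were matched for a few genes.

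Alternatives were other scalings, filters, pseudocounts and thresholds, no trend, a replicate block, leaving out each library, and only the libraries marked combined, a word the sources do not explain. After the counts of all genes called had been seen, and because they differed slightly from counts obtained earlier from the same files, 18 versions of the trimmed mean (each of the 6 libraries as reference, with 3 choices of genes) were also tried. None gave the earlier counts, and the version written first was kept.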

Additional observations from a re-analysis of the deposited data

How the results depend on the processing

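All 9 AP-1 genes tested kept their direction under each of 17 alternatives, and their calls held except that of Maff (-2.04, limma adjusted p = 0.0101, with only the libraries marked combined, where the lone KSFM-Ca2+ library is assumed to vary like the others). Fosb, at 0.61, passed only with the threshold at 0.05 (limma adjusted p = 0.0290), and ranged from 0.20 with quantile normalization to 0.75 without DKSFM replicate 3 (limma adjusted p from 0.0164 to 0.392). The members called stayed at 2 higher in DKSFM and 3 higher in KSFM-Ca2+ without any one library. All genes called higher in DKSFM fell from 1636 to 1032 when 0.5 was required in every library, which tested 11112 genes and drops those seen in 1 line. The log2 fold change of Hspa8, 0.028, was -0.00818 with quantile normalization, -0.047 with the libraries marked combined, and -0.0064 to 0.073 without each library in turn. Same-numbered replicates did not deviate together (correlations -0.0051, 0.024 and -0.0061 across genes), and 2 of 6 samples were nearest their own number. This cannot show whether they share a culture or a batch, which the sample labels do not say. With the replicate block 2 and 3 members and 1641 and 1304 genes in all were called. In the 18 versions of the trimmed mean tried after the data were seen, the members called were 2 and 3 in each, and all genes called ranged from 1630 to 1684 higher in DKSFM and from 1282 to 1316 higher in KSFM-Ca2+. No scaling moved the median of all genes by 0.1. Coverage in steps of 0.1 limits Fosb and other genes near 1.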
